A study of Mus musculus with 6 samples.

Results

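The levels of 10 integrin subunit genes were examined in mouse tail tendon: *Itga5*, *Itgav*, *Itga8*, *Itgb3*, *Itgb5*, *Itgb8*, *Itga9*, *Itga3*, *Itga6* and *Itgb4*. They were taken by gene symbol, as the subunits of receptors for fibronectin, for related ligands and for laminin. All 10 of the 10 had a row in the table of 44788 symbols, and all 10 had enough counts to be tested. Tail tendons of C57BL/6 mice were compared between WT libraries (n = 3) and Mkx-/- libraries (n = 3), from a mutant of the tendon transcription factor Mohawk. How many animals gave each library is not stated. The labels name no treatment, no Cre driver and no sex, and how the mutant allele was made is not given in the sources used here. The sample labels give an age of 3 weeks, while the study's text gives 4 weeks. RNA of the whole tissue was sequenced on the Ion Proton system, with 10835070 to 14160301 counts per library. In such bulk samples, fewer cells of a type and less RNA per cell cannot be told apart.

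Integrins are cell surface receptors made of an alpha and a beta subunit, and they couple the extracellular matrix to the actin cytoskeleton. The pair of *Itga5* and *Itgb1* products is the classical fibronectin receptor, and the *Itgav* product pairs with the *Itgb3*, *Itgb5* or *Itgb8* product to bind ligands with an RGD motif, such as vitronectin or the latent form of TGF-beta. The *Itga3* and *Itga6* products bind laminins, and the *Itga6* and *Itgb4* products together form the laminin receptor of hemidesmosomes, which is also present on Schwann cells. In tendon, integrins are known as a link through which cells sense the load carried by the matrix.

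The start regions of *Itga5* and *Itgb5* are shown because these were the most abundant alpha and beta subunits among the 10 genes, and because their levels lay on opposite sides of WT in Mkx-/- tendons. Neither difference passed the test given below (edgeR adjusted p = 0.0834 and 0.418). Each sequence holds the 250 bases before the annotated start in RefSeq (build GRCm38.p6), 5' to 3' on the gene's strand, with copies of the GC box GGGCGG in capitals on either strand (as CCGCCC on the other).
Itga5, chr15:103366792-103367041, minus strand: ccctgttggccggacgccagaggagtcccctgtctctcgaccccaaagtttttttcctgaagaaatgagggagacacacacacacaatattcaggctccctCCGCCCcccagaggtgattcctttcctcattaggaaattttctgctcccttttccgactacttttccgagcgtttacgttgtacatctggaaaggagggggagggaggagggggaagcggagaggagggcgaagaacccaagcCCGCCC
Itgb5, chr16:33829415-33829664, plus strand: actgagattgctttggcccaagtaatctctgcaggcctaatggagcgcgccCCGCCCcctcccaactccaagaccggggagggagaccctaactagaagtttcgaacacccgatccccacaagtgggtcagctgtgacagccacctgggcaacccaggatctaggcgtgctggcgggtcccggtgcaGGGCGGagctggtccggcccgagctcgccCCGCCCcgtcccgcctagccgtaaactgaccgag
The *Itga5* region held 2 GC boxes and 11 CG pairs, with 55.6% G or C. The *Itgb5* region held 3 GC boxes and 18 CG pairs, with 65.2% G or C. Over 27025 promoters of the same length the medians were 6 CG pairs and 52% G or C. Of the 10 genes, 7 had a promoter in the RefSeq table, and *Itgb3*, *Itgb4* and *Itga6* did not. A GC box was found in 3 of the 7 (*Itga3*, *Itga5* and *Itgb5*), against 32.9% of all promoters, and the TATA box TATAAA in 0 of the 7, against 13% of all promoters.

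*Mkx* itself was checked first, with counts of 1825, 1381 and 1685 in WT tendons and of 620, 589 and 491 in mutant tendons. The log2 difference was -1.60 (edgeR quasi-likelihood test, Benjamini-Hochberg adjusted p = 0.00183), so reads on the gene remained in the mutant. Tendon markers were abundant in every library: the 10 markers summed to between 382700 and 525300 normalized CPM (CPM with TMM-scaled library totals) in WT and to between 245900 and 340800 in Mkx-/- tendons. Most of each sum was *Col1a1* and *Col1a2*, with means of 185330 and 257910 in WT and of 115590 and 127460 in Mkx-/- tendons. The median log2 fold change of the 10 markers was -0.22, with 3 above 0 and 7 below. A pair of libraries stood apart. WT replicate 3 had 1 count on *Xist*, against 1289 to 1866 in the other 5 libraries. Mkx-/- replicate 3 carried smooth muscle RNA, with 2548 counts on *Myh11* against 25 to 39 elsewhere and 285 counts on *Cnn1* against 0 to 2. Fold changes of integrins that moved most without either library are given with and without it.

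None of the 10 integrin genes passed the test between genotypes. With edgeR's quasi-likelihood test, 0 of 10 were upregulated and 0 of 10 were downregulated (adjusted p below 0.05 with at least a 2-fold difference, that is a log2 value beyond 1 or -1), where 1.89% and 1.33% of the 14550 tested genes were called. By adjusted p alone the counts were also 0 and 0, against 3.18% and 2.26% of all tested genes. At an unadjusted p under 0.05, 3 of the 10 were higher in Mkx-/- tendons (*Itgb3*, *Itgb4* and *Itga5*) and 0 were lower, against 12.5% and 10.1% of all tested genes. DESeq2 placed the same 3 genes past an adjusted p of 0.05, against 4.72% of the genes it tested in that direction, placed 0 lower, against 3.46%, and placed 0 past both thresholds. Scaling by total counts alone called *Itgb3* and *Itgb4* upregulated, at 1.09 and 1.01 on the log2 scale, under a scaling that lifted the median of all genes to 0.25.
The 10 genes leaned upward as a group. The log2 fold change was above 0 in 8 of 10, against 49.5% of all tested genes, and its median was 0.22, against -0.0037 over all tested genes. Its size depended on single libraries: without Mkx-/- replicate 3 the median was 0.042 with 5 of 10 above 0, and without WT replicate 2 it was 0.16 with 6 of 10 above 0. Without Mkx-/- replicate 1 it was 0.38 and without WT replicate 3 it was 0.34, with 8 of 10 above 0 in both. In 3 genes all Mkx-/- libraries lay above all WT libraries, where 14.6% of tested genes did so, and in 1 gene, *Itgb5*, they lay below, where 13.6% did so, which makes 4 of 10 genes without overlap in either direction, against 28.2%.

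**Figure D1:**
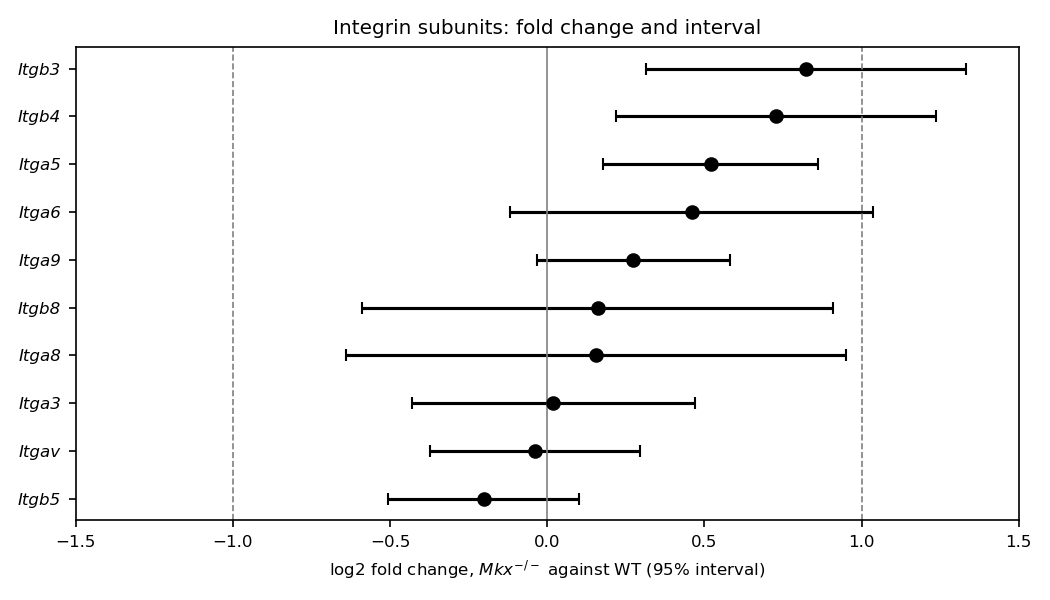
Log2 fold change of each integrin gene (x axis, Mkx-/- against WT) with its 95% interval from edgeR's fit, ordered by size, with dashed lines at the fold thresholds of 1 and -1. The intervals of *Itgb3*, *Itgb4* and *Itga5* lie above 0, with estimates of 0.82, 0.73 and 0.52, and those of the other 7 genes include 0.

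Levels of different genes were compared per kilobase of exon, as normalized CPM per kb. *Itgb5* was the highest of the 10 by far, at 86.1 ± 4.62 in WT and 74.8 ± 8.34 in Mkx-/- tendons (SD, n = 3 each). *Itga5* followed at 22.1 ± 3.05 and 31.7 ± 3.80, and *Itgb4* at 13.2 ± 1.63 and 21.8 ± 6.66. *Itga6* stood at 7.02 ± 1.57 in WT, ahead of *Itga9* at 4.15 ± 0.274, *Itga3* at 3.34 ± 0.901 and *Itgav* at 3.15 ± 0.292. The lowest were *Itgb3* at 1.70 ± 0.350, *Itga8* at 1.01 ± 0.340 and *Itgb8* at 0.986 ± 0.246. In the WT libraries, 3 neighbouring pairs of this order overlapped, namely *Itga9* with *Itga3*, *Itga3* with *Itgav*, and *Itga8* with *Itgb8*. In the Mkx-/- libraries *Itga9* and *Itga3* were separate, the other pairs overlapped as in WT, and so did *Itga5* with *Itgb4* and *Itgav* with *Itgb3*. The partner subunit *Itgb1*, which was not among the 10, was close to *Itgb5*, at 76.5 ± 8.07 in WT and 79.9 ± 6.69 in Mkx-/- tendons.

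**Figure D2:**
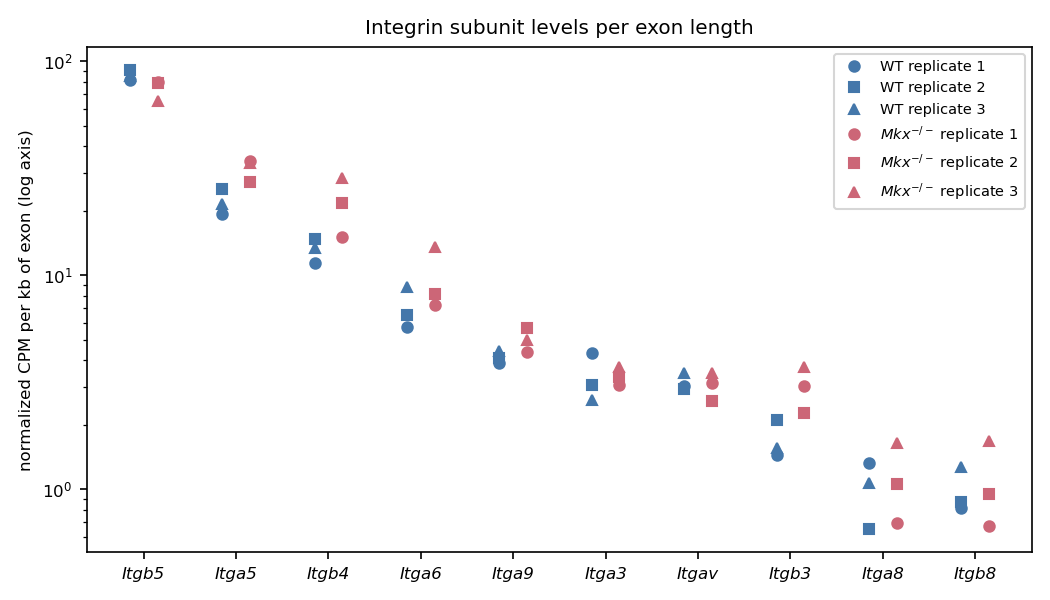
Level of each integrin gene per library (y axis, normalized CPM per kb of exon, log axis), with WT in blue and Mkx-/- in red and 1 symbol per replicate number. The genes run from *Itgb5*, at 86.1 in WT, down to *Itgb8*, at 0.986.

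Among the fibronectin receptors, *Itga5* (chromosome 15, 103174720 to 103197194, minus strand, mm9) encodes the alpha subunit of the classical fibronectin receptor. It was at 84.8, 111 and 94.2 normalized CPM in the WT libraries and at 150, 120 and 147 in the Mkx-/- libraries. The groups did not overlap, but WT replicate 2 and Mkx-/- replicate 2 were close to each other. The log2 fold change was 0.52, with a 95% interval of 0.18 to 0.86 and a standard error of 0.15, and the adjusted p was 0.0834 in edgeR and 0.0358 in DESeq2. Over 13 alternatives the adjusted p of *Itga5* ranged from 0.0137 to 0.237, and it was past 0.05 with DESeq2 and with scaling by total counts. Without WT replicate 3 the estimate was 0.48 and without Mkx-/- replicate 3 it was 0.48 (edgeR adjusted p = 0.214 and 0.237).
*Itgav* (chromosome 2, 83564554 to 83647073, plus strand) encodes the alpha subunit shared by the vitronectin-type receptors. Its levels were 32.5, 31.6 and 37.4 normalized CPM in WT and 33.6, 27.8 and 37.5 in Mkx-/- tendons. These values were interleaved, and the log2 fold change of -0.038 had an interval of -0.37 to 0.30, which leaves out a doubling or a halving of the level (edgeR adjusted p = 0.912). Its sign turned under scaling by total counts and without WT replicate 3 or Mkx-/- replicate 2.
*Itgb3* (chromosome 11, 104469370 to 104531790, plus strand) encodes a beta subunit that pairs with *Itgav* in many cells and with *Itga2b* in platelets. It had 8.43, 12.3 and 9.13 normalized CPM in WT and 17.7, 13.2 and 21.8 in Mkx-/- tendons. Every Mkx-/- library was above every WT library, the closest being WT replicate 2 and Mkx-/- replicate 2. The log2 fold change of 0.82 was the largest of the 10 (interval 0.31 to 1.33, edgeR adjusted p = 0.0723, DESeq2 adjusted p = 0.0273), and it was 0.64 without Mkx-/- replicate 3 and 0.75 without WT replicate 3 (edgeR adjusted p = 0.215 and 0.186). Over the 13 alternatives its adjusted p ranged from 0.0142 to 0.215, and it was past 0.05 in 3 of them.
*Itgb5* (chromosome 16, 33829751 to 33949239, plus strand) encodes the beta subunit of the main vitronectin receptor of many mesenchymal cells. Its levels were 275, 306 and 287 normalized CPM in WT and 269, 267 and 219 in Mkx-/- tendons. All Mkx-/- libraries were below all WT libraries, although Mkx-/- replicates 1 and 2 were within 10 CPM of WT replicate 1. The log2 fold change of -0.20 did not pass the test (interval -0.50 to 0.10, edgeR adjusted p = 0.418), and it was 0.051 with scaling by total counts.
*Itgb8* (chromosome 12, 120396495 to 120477275, minus strand) encodes the beta subunit that, with *Itgav*, activates latent TGF-beta. It had 9.06, 9.62 and 14.0 normalized CPM in WT and 7.42, 10.5 and 18.6 in Mkx-/- tendons. The groups overlapped widely, and the interval of the log2 fold change, -0.59 to 0.91, was broad (edgeR adjusted p = 0.821). Its estimate was 0.16 with all libraries, -0.27 without Mkx-/- replicate 3 and 0.37 without WT replicate 3.
*Itga8* (chromosome 2, 12028259 to 12223547, minus strand) pairs with *Itgb1*, binds nephronectin and is known from smooth muscle and mesangial cells. It was at 9.61, 4.71 and 7.77 normalized CPM in WT and at 5.04, 7.66 and 12.0 in Mkx-/- tendons. The highest library was Mkx-/- replicate 3, the one with smooth muscle RNA, and the log2 fold change was 0.16 with it and -0.21 without it (edgeR adjusted p = 0.838 and 0.810). *Itga9* (chromosome 9, 118515808 to 118810121, plus strand), a receptor subunit for tenascin-C and the extra domain of fibronectin, had 29.9, 31.6 and 34.1 normalized CPM in WT and 33.6, 43.5 and 38.4 in Mkx-/- tendons. Only Mkx-/- replicate 1 reached down into the WT range, and the log2 fold change of *Itga9* was 0.27 (interval -0.033 to 0.58, edgeR adjusted p = 0.274).

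**Figure D3:**
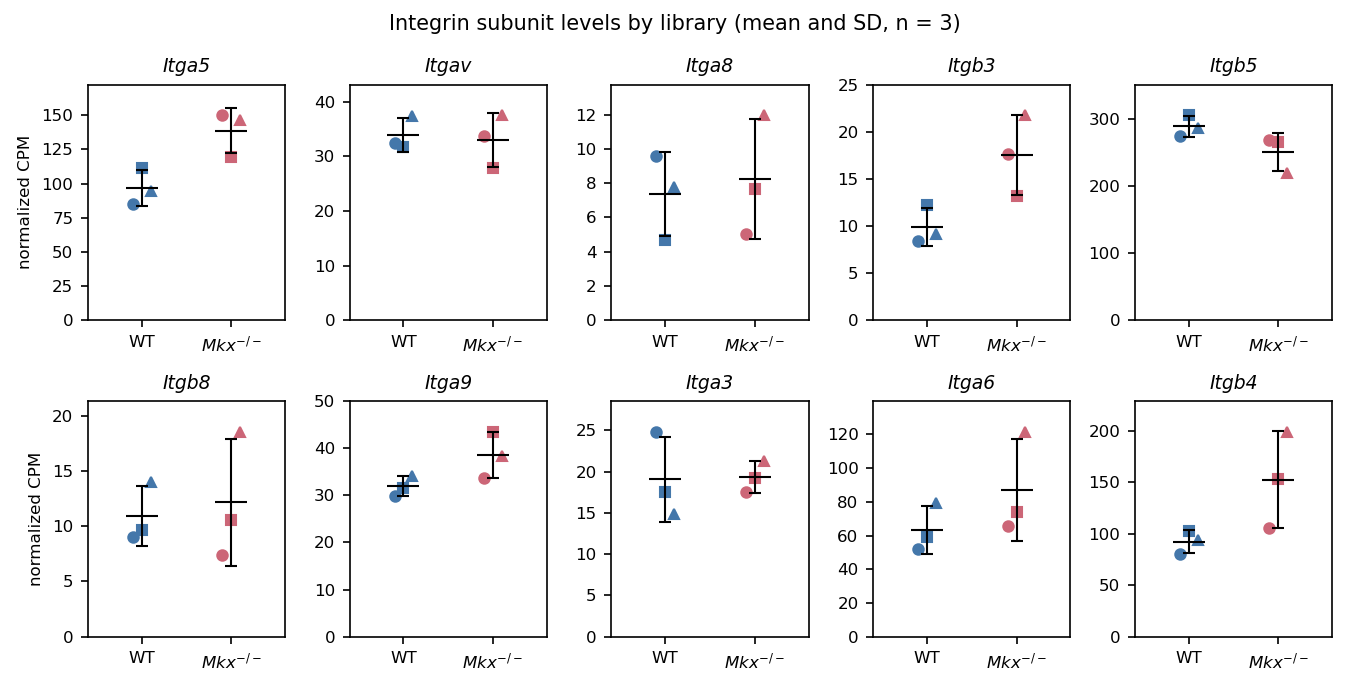
Normalized CPM of each integrin gene (y axis, linear from 0) in the WT (blue) and Mkx-/- (red) libraries, with circles, squares and triangles for replicates 1, 2 and 3 and bars for the mean and SD (n = 3). The groups separate in *Itga5*, *Itgb3*, *Itgb4* and *Itgb5* and overlap in the other 6 genes.

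Among the laminin receptors, *Itga3* (chromosome 11, 94905788 to 94938115, minus strand) had 24.8, 17.5 and 14.9 normalized CPM in WT and 17.5, 19.2 and 21.3 in Mkx-/- tendons. The WT libraries spanned the whole Mkx-/- range, and the log2 fold change was 0.020 (interval -0.43 to 0.47, edgeR adjusted p = 0.972).
*Itga6* (chromosome 2, 71583673 to 71696473, plus strand) had 51.8, 59.0 and 79.1 normalized CPM in WT and 65.6, 74.0 and 122 in Mkx-/- tendons. WT replicate 3 was above 2 of the Mkx-/- libraries. The log2 fold change of 0.46 did not pass the test (interval -0.12 to 1.04, edgeR adjusted p = 0.329), and it was 0.14 without Mkx-/- replicate 3 and 0.63 without WT replicate 3 (edgeR adjusted p = 0.788 and 0.256).
*Itgb4* (chromosome 11, 115836023 to 115869726, plus strand) encodes the beta subunit with the long cytoplasmic tail that anchors keratin filaments through plectin. It had 80.4, 103 and 93.6 normalized CPM in WT and 106, 153 and 199 in Mkx-/- tendons. Every Mkx-/- library was above every WT library, and Mkx-/- replicate 1 was only just above WT replicate 2. The log2 fold change was 0.73 (interval 0.22 to 1.24, edgeR adjusted p = 0.0986, DESeq2 adjusted p = 0.0255). It was 0.91 without Mkx-/- replicate 1 (edgeR adjusted p = 0.0387) and 0.49 without Mkx-/- replicate 3 (edgeR adjusted p = 0.275). Without WT replicate 3 it was 0.72 (edgeR adjusted p = 0.211). Over the 13 alternatives the adjusted p of *Itgb4* ranged from 0.0208 to 0.275, and it was past 0.05 in 4 of them.
Schwann cells are known to carry the *Itga6* and *Itgb4* products, and their markers were read beside these genes. The 10 markers summed to 8171, 10090 and 10800 normalized CPM in WT and to 12660, 20720 and 23570 in Mkx-/- tendons. Mkx-/- replicate 1, with the lowest Mkx-/- sum, was also the lowest Mkx-/- library in *Itgb4*, *Itga6*, *Itgb8*, *Itga8*, *Itga9* and *Itga3*. It was not the lowest in *Itga5*, *Itgav*, *Itgb3* or *Itgb5*. All 10 had a log2 fold change above 0, with a median of 0.98, and 7 were higher without overlap between the groups, against 14.6% of all tested genes. With edgeR 0 of 10 passed an adjusted p of 0.05, while 9 were higher with an unadjusted p under 0.05, against 12.5% of all tested genes, and DESeq2 placed 7 past an adjusted p of 0.05. *Pmp22*, a myelin protein, had a mean of 2241 normalized CPM in WT and 4474 in Mkx-/- tendons, and no marker of this list was at 0. Their part in the levels of *Itgb4*, *Itga6* and *Itgb8* was not tested.
Keratinocytes are also known for the *Itga6* and *Itgb4* pair. Their markers summed to 13.1 to 30.5 normalized CPM in WT and to 32.0 to 38.3 in Mkx-/- tendons, and *Dsg3* had 1 count in 1 of the 6 libraries. Of the 7 tested, 1 was upregulated, *Perp*. At an unadjusted p under 0.05, 4 were higher and 1 was lower, against 12.5% and 10.1% of all tested genes. DESeq2 called 2 upregulated and 1 downregulated. The most abundant, *Trp63*, was the lower one, at -1.02 on the log2 scale (edgeR adjusted p = 0.102, DESeq2 adjusted p = 0.0332). The keratins *Krt5*, *Krt14* and *Krt15* were higher without overlap, where 14.6% of tested genes were. In WT replicate 1 *Krt5* and *Krt15* had 0 counts. Another keratin, *Krt10*, overlapped between the groups, with a log2 fold change of 0.14. The part of keratinocytes in the level of *Itgb4* was not tested. Mural and smooth muscle markers summed to 188 to 226 normalized CPM in WT, to 192 and 216 in Mkx-/- replicates 2 and 1, and to 988 in Mkx-/- replicate 3. With edgeR 0 of 9 tested passed, and DESeq2 placed 1 past both thresholds. An unadjusted p under 0.05 was reached by 4, all higher in Mkx-/- tendons, against 12.5% of all tested genes. The part of these cells in the levels of *Itga8* and *Itgb3* was not tested.

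**Figure D4:**
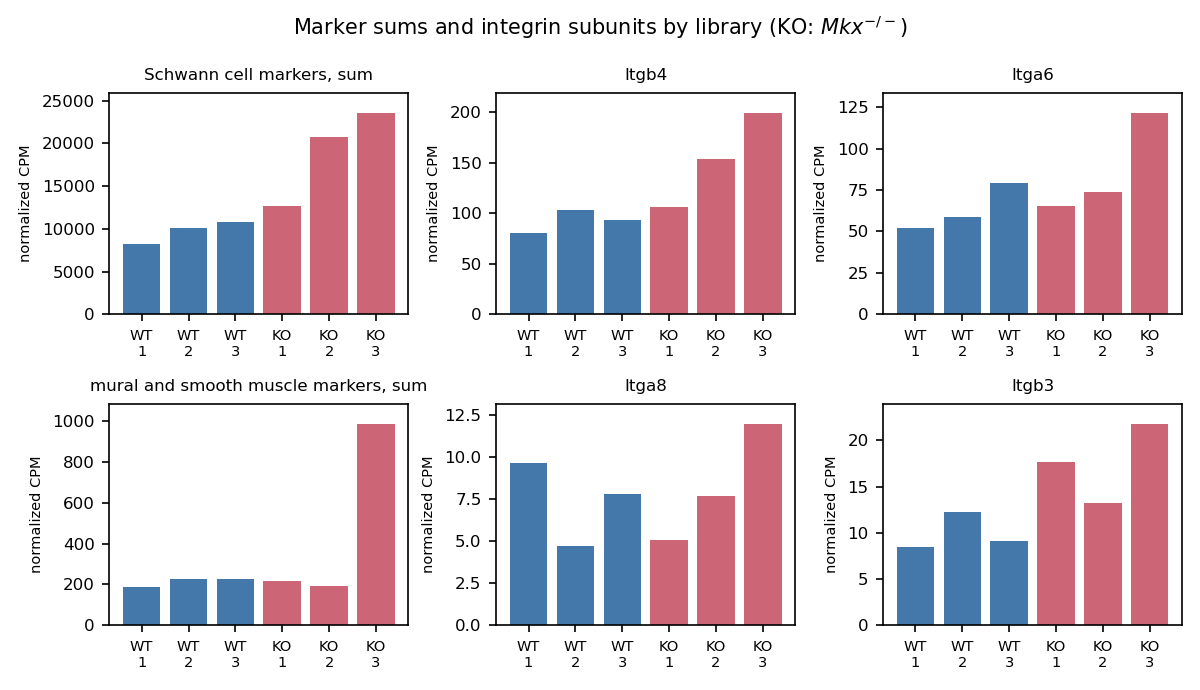
Summed normalized CPM (y axes, linear from 0) of the Schwann cell markers with *Itgb4* and *Itga6* in the upper row, and of the mural and smooth muscle markers with *Itga8* and *Itgb3* in the lower row, 1 bar per library, WT in blue and Mkx-/- (KO) in red. The Schwann sum runs from 8171 to 10800 in WT and from 12660 to 23570 in Mkx-/- tendons, and the smooth muscle sum of 988 belongs to Mkx-/- replicate 3.

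Ratios of subunits within a library do not depend on how libraries are scaled. The 4 ratios below, of levels per kb, were chosen after the values were seen and are given as a description. *Itgb3* to *Itgb5*, alternative partners of *Itgav*, stood at 0.0176, 0.0231 and 0.0183 in the WT libraries and at 0.0378, 0.0285 and 0.0572 in the Mkx-/- libraries. The groups did not overlap, and the mean log2 ratio differed by 1.02, or by 0.75 without Mkx-/- replicate 3. *Itgb3* remained the minor partner in every library.
*Itga5* to *Itgav*, the alpha subunits of the main fibronectin receptors, stood at 6.41, 8.63 and 6.18 in WT and at 10.9, 10.6 and 9.60 in Mkx-/- tendons, a log2 difference of 0.57 with no overlap. *Itga5* to its partner *Itgb1* stood at 0.287, 0.323 and 0.258 in WT and at 0.407, 0.379 and 0.402 in Mkx-/- tendons, a log2 difference of 0.46. These ratios were higher in all Mkx-/- libraries. *Itgb4* to *Itga6* stood at 1.99, 2.25 and 1.52 in WT and at 2.08, 2.67 and 2.11 in Mkx-/- tendons, and here the groups overlapped.
The likeness of 2 subunits was also measured as the root-mean-square difference of their mean-centred log2 CPM over the 6 libraries. Of 45 pairs, *Itga5* and *Itgb3* were the most alike, at 0.197, followed by *Itgb8* and *Itga6* at 0.217 and by *Itga6* and *Itgb4* at 0.240. *Itga8* and *Itgb3* were the least alike, at 0.654.

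The other subunits that pair with these genes, or bind the same ligands, also passed no threshold. *Itgb1*, the common beta subunit, had 312 ± 32.9 normalized CPM in WT and 326 ± 27.3 in Mkx-/- tendons (SD, n = 3 each), and its log2 fold change of 0.062 had an interval of -0.25 to 0.38 (edgeR adjusted p = 0.837). Of the 5 tested, *Itga7*, a laminin receptor of muscle and Schwann cells, was higher (log2 fold change 0.81) and *Itga2b*, of platelets, was lower (-0.86) at an unadjusted p under 0.05, with edgeR adjusted p of 0.133 and 0.180. DESeq2 placed 0 of the 5 past an adjusted p of 0.05. *Itgb6*, the epithelial partner of *Itgav*, had 0 to 2 counts per library.
Ligands of these receptors were read next. Of 17 tested ligands with RGD or related binding sites, 5 were upregulated, and 8 rose by adjusted p alone, against 1.89% and 3.18% of all tested genes. None fell, with 0 lower at an unadjusted p under 0.05 in edgeR and 0 lower by adjusted p in DESeq2. The median log2 fold change was 0.97, against 0.22 for the 10 integrins and -0.0037 for all tested genes. *Fn1*, fibronectin itself, was at 1091, 1021 and 931 normalized CPM in WT and at 2774, 3175 and 2850 in Mkx-/- tendons, 2.89-fold higher (edgeR adjusted p = 0.00173). *Nov*, a matricellular CCN protein, was the largest, with a log2 fold change of 2.81, and *Postn*, *Ctgf* and *Spp1* had 1.49, 1.20 and 1.07 (edgeR adjusted p = 0.00181, 0.0165, 0.0226 and 0.0489 in that order). *Npnt*, the ligand of the *Itga8* receptor, rose with a log2 fold change of 0.97, *Fbln5* with 0.68 and *Fbn1* with 0.65 (edgeR adjusted p = 0.0111, 0.0141 and 0.0458). *Tnc*, a ligand of the *Itga9* receptor, had 62.3, 161 and 178 normalized CPM in WT and 374, 181 and 324 in Mkx-/- tendons and did not pass (edgeR adjusted p = 0.135). *Fn1* and *Nov* passed an adjusted p of 0.05 under all 13 alternatives, *Postn* and *Npnt* under 11, *Ctgf* under 9, *Fbln5* under 8, *Spp1* under 6 and *Fbn1* under 5, while the number of upregulated ligands was 2 without WT replicate 2 and 2 without WT replicate 3.
Of 9 tested laminin chains, 1 was upregulated, against 1.89% of all tested genes. None fell, with 0 lower at an unadjusted p under 0.05 in edgeR and 0 lower by adjusted p in DESeq2. The abundant chains *Lamb2*, *Lamc1* and *Lamb1* differed by 0.32, 0.44 and 0.57 on the log2 scale and did not pass (edgeR adjusted p = 0.241, 0.0837 and 0.126). In 7 of the 9 chains all Mkx-/- libraries were above all WT libraries, where 14.6% of tested genes were, and the median log2 fold change was 0.44.
Of 6 hemidesmosome partners, 0 passed in edgeR. In the higher direction 4 had an unadjusted p under 0.05, against 12.5% of all tested genes. DESeq2 placed 3 past an adjusted p of 0.05 as higher, against 4.72% of the genes it tested, and 1 of them past the fold threshold. *Plec*, plectin, which binds the *Itgb4* tail, had a log2 fold change of 0.55, *Cd151*, a tetraspanin of laminin-binding integrins, 0.65, and *Dst* 0.32 (edgeR adjusted p = 0.0803, 0.0875 and 0.345). The median of the list was 0.93, carried in part by *Krt5*, *Krt14* and *Col17a1*, which had at most 78 counts in any library.
Of 9 genes of latent TGF-beta, *Ltbp2* was upregulated, from 16.6 ± 8.76 to 61.1 ± 22.4 normalized CPM (SD, n = 3 each, edgeR adjusted p = 0.0351), and *Ltbp1* fell by 0.92 on the log2 scale (edgeR adjusted p = 0.0215), short of the fold threshold. Each passed an adjusted p of 0.05 in 8 of 13 alternatives. The abundant carriers *Ltbp4* and *Ltbp3* and the ligand *Tgfb3* differed by 0.016, 0.30 and 0.038 on the log2 scale (edgeR adjusted p = 0.971, 0.287 and 0.895). The median of the list was 0.016.
Of 26 tested adapters and kinases of integrin adhesions, 0 passed in edgeR. At an unadjusted p under 0.05, 7 were higher and 2 were lower, against 12.5% and 10.1% of all tested genes. DESeq2 placed 4 past an adjusted p of 0.05 as higher and 1 as lower, against 4.72% and 3.46% of the genes it tested. The smallest edgeR adjusted p were those of *Tgfb1i1* (log2 fold change 0.50), *Lims2* (0.69), *Pxn* (0.52) and *Actn4* (0.56), between 0.0605 and 0.0628. The abundant *Tns1*, *Tln1* and *Flna* stood at log2 values of -0.10, -0.024 and 0.19 against WT (edgeR adjusted p = 0.748, 0.934 and 0.692). The median of the list was 0.19, close to that of the 10 integrins.

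**Figure D5:**
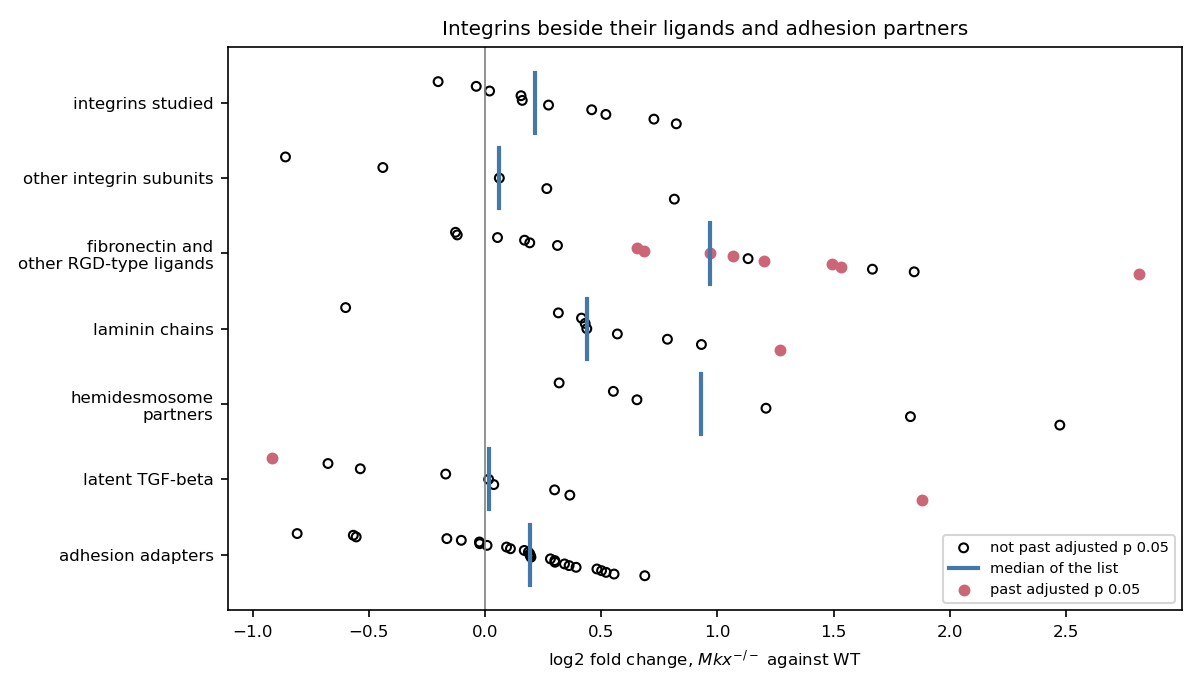
Log2 fold change (x axis, Mkx-/- against WT) of each tested gene of the 10 integrins and of 6 lists of their partners and ligands, with filled red points past an adjusted p of 0.05 in edgeR, open points not past it, and a blue bar at the median of each list. Filled points are found among the fibronectin and RGD-type ligands (8), the laminin chains (1) and the latent TGF-beta genes (2), and not among the integrins, the other subunits, the hemidesmosome partners or the adapters.

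Further marker lists were read for cells that carry these integrins. Osteoclasts and platelets are known for *Itgb3*: of 8 osteoclast markers 5 were too low to test and *Calcr* was at 0. Of the 3 tested, *Acp5* rose by 2.24 on the log2 scale (edgeR adjusted p = 0.000463). The others did not pass, with *Ctsk* at 0.33 and *Mmp9* lower, at -0.67 (edgeR adjusted p = 0.135 and 0.55). The sum was 153 to 169 normalized CPM in WT and 212 to 228 in Mkx-/- tendons, most of it *Ctsk*. Of 8 megakaryocyte and platelet markers 5 were too low to test, *Gp1ba* and *Gp6* were at 0, and the sum was 33.0 to 42.6 in WT and 25.5 to 29.9 in Mkx-/- tendons. Of the 3 tested, 0 passed in edgeR, and DESeq2 placed 0 past an adjusted p of 0.05. At an unadjusted p under 0.05, 2 were lower, against 10.1% of all tested genes. Endothelial markers, of cells known for *Itga5*, *Itgav* and *Itgb3*, summed to 82.9 to 101 in WT and to 138 to 215 in Mkx-/- tendons, with 1 of 15, *Erg*, upregulated and 13 of 15 above 0. The highest sum was that of Mkx-/- replicate 3, and the other Mkx-/- libraries summed to 138 and 146. *Erg* ran in another order, at 44.1, 37.1 and 26.9 normalized CPM in Mkx-/- replicates 1, 2 and 3. In the WT libraries *Erg* was at 6.78, 8.44 and 9.69. An unadjusted p under 0.05 was reached by 9 of the 15, all higher, against 12.5% of all tested genes. Of the 15, 8 were higher without overlap, against 14.6%, and DESeq2 called 4 upregulated. Macrophage and leukocyte markers were lower, with sums of 476 to 528 in WT and 299 to 359 in Mkx-/- tendons and 2 of 10 downregulated (*Adgre1* and *Mrc1*). In 9 of the 10 the groups did not overlap, all lower, against 13.6% of all tested genes. Skeletal muscle markers summed to 100 to 399 in WT and 571 to 2783 in Mkx-/- tendons, with 3 of 15 upregulated (*Tnnt3*, *Tnni2* and *Tnnc2*). An unadjusted p under 0.05 was reached by 14 of the 15, all higher, against 12.5% of all tested genes. Without overlap 13 were higher, against 14.6%, and DESeq2 called 7 upregulated. Chondrocyte markers summed to 3725 to 5890 in WT and 1707 to 2952 in Mkx-/- tendons, with 3 of 8 tested upregulated (*Acan*, *Matn3* and *Ucma*) and 1 downregulated. The lower chondrocyte sum followed *Col11a2*, the downregulated gene, which had a mean of 4012 normalized CPM in WT and 1216 in Mkx-/- tendons, while the median log2 fold change of the list was 0.93. Of the 10 tendon markers 1 was upregulated, *Thbs4*, and 0 were downregulated in edgeR, while DESeq2 called 3 downregulated. In the lower direction 3 reached an unadjusted p under 0.05, against 10.1% of all tested genes. The part of these cells in the levels of the 10 integrins was not tested.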

How the data were processed

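RNA of 6 tail tendon samples (3 WT, 3 Mkx-/-) was extracted with TRIzol and sequenced on the Ion Proton system. The authors removed adaptors and low-quality reads, aligned the rest to mm9 with MapSplice and deposited raw counts per gene symbol, without normalization. The counting program, its annotation and its use of strand are not given in the sources used here. Models that overlap 5 of the 10 genes in mm9 number 10, and the 5 of them with a row had at most 4 counts in any library.

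Counts were scaled with TMM, filtered with filterByExpr (14550 genes) and fitted on genotype alone with edgeR 4.0.16 in R 4.3.3 (quasi-likelihood test, prior count 0.125, Benjamini-Hochberg adjustment over all tested genes). Intervals of fold changes are 95% intervals from the same fit. The thresholds were those of the study, whose tool, DESeq2 (1.42.0), was an alternative. The biological coefficient of variation was 0.196. Levels per kb used the summed exon length of the GENCODE annotation of mm9, which may differ from the annotation counted. Fits were tested on simulated data. The exact permutation test of 3 against 3 libraries cannot go below p = 0.1, so none was run for single genes. The labels do not say how many animals gave each library, so p-values measure the spread between these samples. No pair of replicates was 1 library repeated (chi-square per degree of freedom 7.59 to 36.4).

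The 10 genes, the gene lists and the markers were chosen with earlier results of these data known. Named genes were the 10 members, *Mkx*, the called and the 3 most abundant genes of each list, those with the smallest p, up to 6, and marker genes by abundance or at 0. Profiles most like a called member were to be named, and no member was called. *Tnc*, the called marker genes *Thbs4*, *Perp*, *Adgre1*, *Tnnt3*, *Tnni2*, *Tnnc2*, *Matn3* and *Ucma*, the keratins *Krt10* and *Krt15*, *Itgb6*, *Myh11*, *Cnn1*, *Dsg3* and *Xist*, and the ratios, were chosen after the values were seen, as was DESeq2 by adjusted p alone. The alternatives were RLE scaling, scaling by total counts, filters of 1 count in any and 10 counts in every library, DESeq2, a robust fit, a block for replicate number, and leaving out each library in turn. Values of some genes of these lists are not reported here.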

Additional observations from a re-analysis of the deposited data

How the results depend on the processing

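At both thresholds, the count of upregulated integrins was 0 in all fits that left out a library. It was also 0 in every other alternative except scaling by total counts (2). By adjusted p alone, the count was 3 with DESeq2, a reading chosen after seeing the data, and 3 with scaling by total counts. It was 2 with the filter of 1 count and 1 without Mkx-/- replicate 1. The count of downregulated integrins was 0 in every alternative. The median log2 fold change of the 10 integrins was 0.49 with scaling by total counts, which moved the median of all genes to 0.25, and 0.042 to 0.38 over the fits that left out a library. Signs of small changes turned as follows. With scaling by total counts *Itgav* was 0.22 and *Itgb5* 0.051. Without WT replicate 2 *Itga8* was -0.094 and *Itga3* -0.053, without WT replicate 3 *Itgav* was 0.024 and *Itga3* -0.15, without WT replicate 1 *Itgb1* was -0.022, and without Mkx-/- replicate 2 *Itgav* was 0.073. Without Mkx-/- replicate 3 *Itga8* was -0.21, *Itgb8* -0.27 and *Itga3* -0.056. The cause was not tested. Over all fits that left out a library *Itgav* ranged from -0.14 to 0.073, *Itga8* from -0.21 to 0.39, *Itgb8* from -0.27 to 0.39, *Itga3* from -0.15 to 0.26 and *Itgb1* from -0.022 to 0.13.

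Among all genes, 711 were upregulated with scaling by total counts, and 541 were upregulated and 322 downregulated with the filter of 1 count. Leaving out a library gave 103 to 321 upregulated and 112 to 248 downregulated genes. The filter of 1 count gave 8 upregulated ligands and 2 upregulated hemidesmosome partners, scaling by total counts gave 1 upregulated gene among the other subunits, 2 laminin chains and 2 hemidesmosome partners, DESeq2 gave 1 hemidesmosome partner, and the robust fit gave 0 upregulated genes of latent TGF-beta. Over the fits that left out a library, upregulated ligands numbered 2 to 5, laminin chains 1 to 2, hemidesmosome partners 0 to 1, other subunits 0 to 1 and genes of latent TGF-beta 0 to 1, and downregulated other subunits and genes of latent TGF-beta 0 to 1 each.

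Same-numbered libraries did not all deviate together (correlations of 0.0261, -0.21 and 0.297 for numbers 1, 2 and 3), and not every library correlated best with its own number, so the numbers were not taken as pairs. With the replicate block, 195 genes were upregulated and 136 downregulated, with 0 integrins in either direction and 4 upregulated ligands. At this depth *Itgb3*, *Itga8* and *Itgb8*, with 48 to 275 counts per library, had the lowest mean levels of the 10.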
